A study of Homo sapiens with 45 samples.

Results

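The control map of poised-enhancer contacts, taken 5 days into the change from naive to primed pluripotency, held 149229 contacts. A contact is a pair of DNA fragments with an interaction score of at least 5 in the profile of cells given only the solvent DMSO, and no score of treated cells was used to choose it. These contacts were 34.3% of the 434524 pairs listed for the series, each of which reached 5 in at least 1 of the 3 profiles. Of the listed pairs on the same chromosome (cis), 152688 in number, 64730 or 42.4% were contacts in DMSO. The score is that of CHiCAGO, a method that weighs the reads joining a captured fragment (the bait) to another fragment (the other end) against a background model.

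The cells were HNES1, an established human embryonic stem cell line, so all results come from 1 line. Cells in naive culture received DMSO, in a volume equal to that of the compounds, 24 h before day 0. They were then moved to N2B27 medium with the tankyrase inhibitor XAV939 and were fixed on day 5 with DMSO still present. The series also holds cells given UNC6852 at 2.5 µM, a PROTAC that degrades EED, a core subunit of Polycomb repressive complex 2 (PRC2), and cells given UNC1999 at 1 µM, an inhibitor of its catalytic subunits EZH1 and EZH2. Medium, line and schedule were shared by all 3 groups. The DMSO group had 15 libraries from 3 biological replicates, 12 in batch 1 and 3 in batch 2, and its deposited profile pools all of them. There are therefore no replicate values: the numbers describe 1 pooled profile, without a spread between replicates and without tests. Intervals beside shares are exact (Clopper-Pearson) 95% binomial intervals, which cover counting error only. Contacts are not independent of each other, since many stand in runs of neighbouring fragments, as described below. The read depth behind the scores is unknown. The assay measures DNA contacts, so the cell state was not checked against marker genes.

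Poised enhancers regulate developmental genes. In pluripotent cells they are not yet active and carry the PRC2 mark H3K27me3 together with enhancer features. They are known to touch the promoters of their target genes, often over long distances, before those genes are switched on. Capture Hi-C ligates DNA ends held close together by fixation and then enriches those that hold chosen sequences with RNA probes. Here the genome was cut with DpnII, which cleaves at the letters GATC, and the baits were fragments with poised enhancers.

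The baits were short, with a median length of 625 bp, whereas uncaptured other ends were mostly bins of several fragments with a median length of 5265 bp. A contact thus places 1 end on a short fragment and the other within about 5 kb. To show what a bait is at a gene, the promoters of 4 of the genes with most contacts are printed below, from 250 bases before to 50 bases after the transcription start, 5′ to 3′ on the gene's strand. Capitals mark the DpnII site GATC, where 1 fragment ends and the next begins. The sequences are RefSeq's for GRCh38.p14. SST lies at chr3:187670345-187670644, SKAP2 at chr7:26857674-26857973, OTP at chr5:77638664-77638963 and KCNH1 at chr1:211134099-211134398, all on the minus strand.
SST: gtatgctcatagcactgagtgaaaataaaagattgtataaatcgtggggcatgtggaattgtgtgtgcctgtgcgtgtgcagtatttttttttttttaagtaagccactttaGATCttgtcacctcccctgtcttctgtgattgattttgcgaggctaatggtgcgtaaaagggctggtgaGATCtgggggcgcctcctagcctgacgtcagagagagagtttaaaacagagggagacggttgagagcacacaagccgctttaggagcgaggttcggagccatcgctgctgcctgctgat
SKAP2: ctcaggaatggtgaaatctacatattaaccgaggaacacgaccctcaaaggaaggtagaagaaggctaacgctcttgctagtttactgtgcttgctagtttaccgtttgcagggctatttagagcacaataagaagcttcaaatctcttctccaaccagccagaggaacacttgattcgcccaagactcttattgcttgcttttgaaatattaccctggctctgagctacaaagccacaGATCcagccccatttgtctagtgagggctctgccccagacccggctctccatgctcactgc
OTP: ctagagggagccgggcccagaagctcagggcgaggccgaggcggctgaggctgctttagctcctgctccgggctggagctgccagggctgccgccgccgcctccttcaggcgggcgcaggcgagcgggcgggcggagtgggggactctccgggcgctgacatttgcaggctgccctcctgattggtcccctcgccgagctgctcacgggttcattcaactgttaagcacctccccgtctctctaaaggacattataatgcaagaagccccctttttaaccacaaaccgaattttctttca
KCNH1: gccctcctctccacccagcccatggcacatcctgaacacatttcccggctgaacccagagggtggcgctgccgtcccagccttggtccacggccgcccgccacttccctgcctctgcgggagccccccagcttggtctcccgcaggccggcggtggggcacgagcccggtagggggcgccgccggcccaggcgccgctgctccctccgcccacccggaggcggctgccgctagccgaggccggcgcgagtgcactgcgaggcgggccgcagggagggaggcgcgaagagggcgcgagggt

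The SST window holds 2 DpnII sites, and the captured fragment chr3:187670529-187670839 starts at 1 of them, just upstream of the transcription start. That fragment alone had 29 cis contacts. The SKAP2 window holds 1 site, which parts 2 adjoining captured fragments, chr7:26857553-26857730 with 8 contacts and chr7:26857731-26858403 with 17. The windows of OTP and KCNH1 hold 0 sites, so each whole window lay within 1 captured fragment, chr5:77638653-77639696 with 18 contacts and chr1:211134062-211134718 with 21. Among 15842 protein-coding promoters with an entry, 39.6% hold the letters GATC, which read the same on either strand. All 1257 fragment starts that fell inside such a window stood at a GATC, so the coordinates of the contacts and of the promoters use the same build.

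Cis contacts lay mostly between 100 and 500 kb. Their median distance, between fragment midpoints, was 288 kb, with quartiles at 174 and 480 kb and the 90th percentile at 889 kb. Between 100 and 500 kb lay 43272 contacts, 66.9% of those in cis. A further 11215 (17.3%) spanned 0.5 to 2 Mb and 5686 (8.78%) spanned 20 to 100 kb. Only 662 (1.02%) were shorter than 20 kb, and 3895 (6.02%) were longer than 2 Mb. The partner lay at a lower coordinate than the bait in 32869 contacts and at a higher one in 31861.

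**Figure D1:**
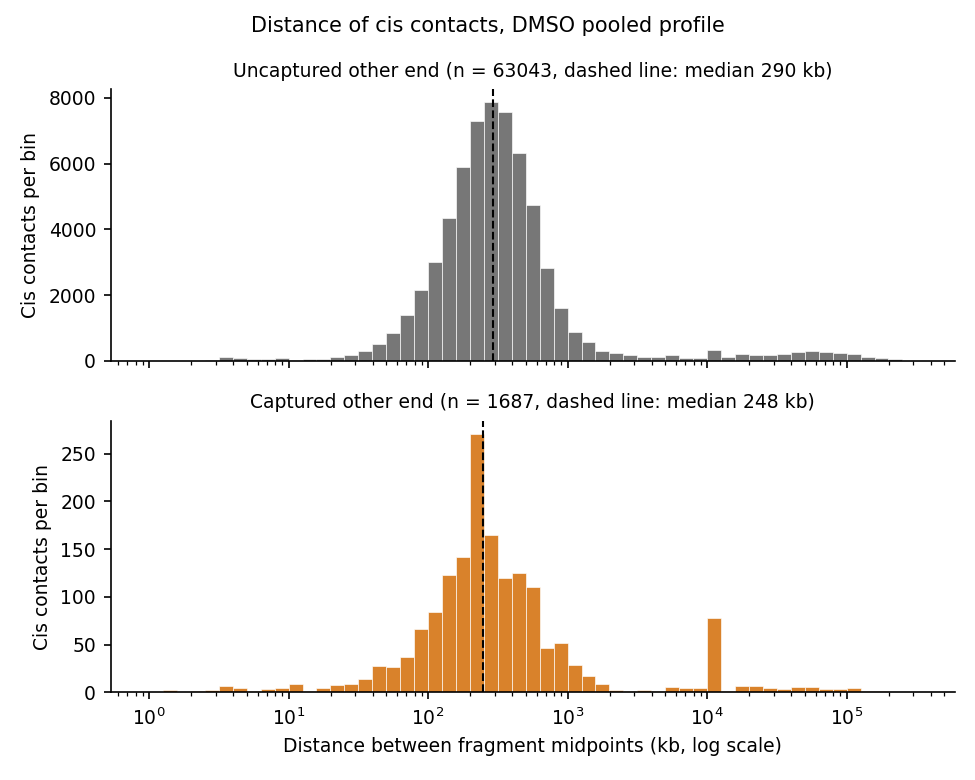
Number of cis contacts per bin of distance between fragment midpoints (kb, log scale) in the DMSO pooled profile, for uncaptured other ends (top, 63043 contacts) and captured other ends (bottom, 1687 contacts), with the median as a dashed line at 290 and 248 kb. The distributions peak between 100 and 500 kb, and captured other ends show a separate bar just beyond 10000 kb, in the range of the chromosome 16 pairs described in the text.

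Many scores lay close to the threshold. Of all 149229 contacts, 40502 scored from 5 to below 5.5, and the lowest scored 5.00005. On the other side, 5469 listed pairs scored from 4.5 to below 5, the highest at 4.99996; these are listed only because a treated profile reached 5, so these counts cannot be compared. In cis the median score was 6.07, the 90th percentile 9.27 and the 99th 17.7. Scores of at least 10 were reached by 4813 cis contacts. The share of such scores was similar in the classes from 20 kb to 2 Mb, at 5.505% for 20 to 100 kb, 6.84% for 100 to 500 kb and 6.14% for 0.5 to 2 Mb. Below 20 kb it was 3.63%, and beyond 2 Mb it was 21.3%.

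Cis contacts tended to stand in runs. For 47.1% of them (interval 46.7 to 47.4%) the same bait also contacted a fragment at most 2 fragments away, or a neighbouring bait contacted the same other end. The share was highest at 20 to 100 kb (57.8%) and 100 to 500 kb (52.7%), and fell to 31.4% at 0.5 to 2 Mb and 15.8% beyond 2 Mb. Of the trans contacts, which join different chromosomes, 0.757% (0.700 to 0.818%) had such a neighbour. Merging neighbouring other ends of a bait left 47298 runs in cis and 84143 in trans.

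Trans contacts were the larger class, 84499 against 64730, so that 43.4% of contacts (43.1 to 43.6%) were in cis. The mean per listed bait was 3.09 in trans, beside 2.37 in cis. By chromosome, trans contacts per listed bait ranged from 2.52 on chromosome 19 to 3.41 on chromosome 4. Their median score was 5.95 and their 99th percentile 19.9. The strongest trans score, 3653, joined a bait at chr17:22521401-22521558 to mitochondrial DNA, a molecule outside the nucleus. In all, 12 baits lay on mitochondrial DNA and 91 contacts had mitochondrial DNA at 1 end. The next scores, up to 2558, joined a bait at chr1:125183675-125184134 to fragments of chromosome 10, among them chr10:41843362-41849792 and chr10:42092964-42098614. Neither bait had a gene within 1 kb. How reads map to such fragments was not tested.

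A minority of baits held most of the cis contacts. Of 27333 listed baits, 25730 had a contact in DMSO and 18569 had one in cis, while 7161 had trans contacts only. Baits with cis contacts had a median of 2, with quartiles of 1 and 4 and a mean of 3.49. Exactly 1 was found for 6534 baits. At the upper end, 4088 baits with at least 5 cis contacts held 56.9% of them, and 1261 baits with at least 10 held 28.8%. The 1857 baits that form the top 10 percent held 36.7%. Cis contacts per listed bait ranged by chromosome from 1.34 on chromosome 22 to 2.88 on chromosome 5.

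**Figure D2:**
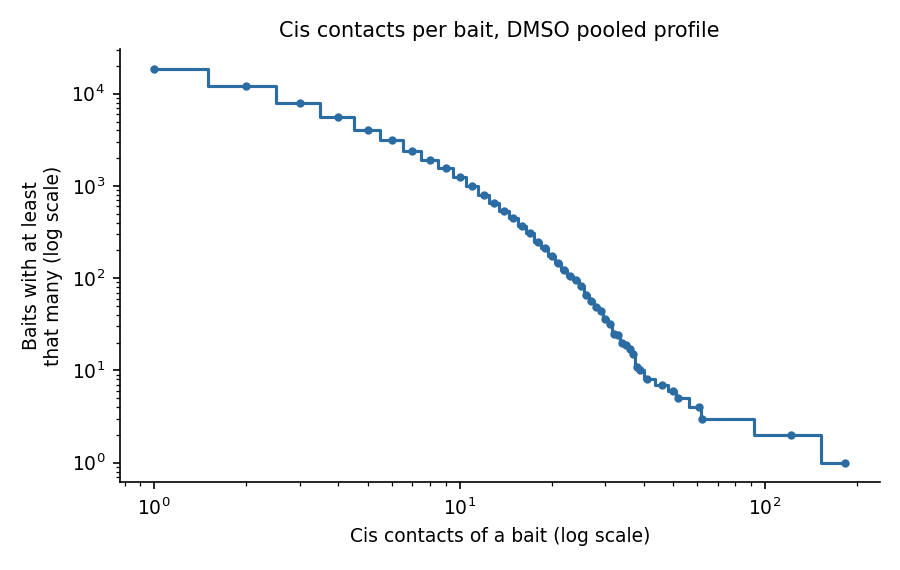
Number of baits (log scale) with at least the number of cis contacts on the horizontal axis (log scale) in the DMSO pooled profile, each point a number of contacts that occurs. Of 18569 baits with any cis contact, 4088 have at least 5 and 1261 at least 10, and the highest has 183.

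Of the 4 baits with the highest counts, 3 had most of their cis contacts beyond 2 Mb. The bait with 183 cis contacts, chr16:46390065-46390538, had only 2 of them within 2 Mb and a median distance of 11221 kb. The bait at chr1:125183675-125184134 had 122, of which 8 lay within 2 Mb. A bait 1.54 kb from LRRC37A3 on chromosome 17 had 61, of which 3 lay within 2 Mb. Over the whole map, these baits included, 94.0% of cis contacts lay within 2 Mb. Baits with lower counts could also have mostly far contacts. The bait chr16:46390694-46391459 had 46, of which 3 lay within 2 Mb, and chr9:62874760-62875066 had 37, of which 6 did. The remaining bait of the 4 with the highest counts, within SND1, had 62, of which 60 lay within 2 Mb.

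Within 2 Mb, the fullest baits named here lay inside a gene or within 1 kb of one. Of all listed baits, 25.1% lay within 1 kb of a gene end, and the share inside genes was not computed. The fullest, the bait within SND1, which encodes a nuclease, had these 60 contacts at a median of 210 kb. Of them, 47 pointed towards lower coordinates and 13 towards higher ones. A bait within TNS3, a focal adhesion gene, had 51. The bait next to FOXI3, a forkhead gene of craniofacial and ear development, had 50, of which 46 pointed to lower coordinates. A bait within CYFIP1, a gene of actin regulation, had 41 at a median of only 74.2 kb.

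Several of these baits pointed 1 way only. A bait within GLRA1, a glycine receptor subunit gene, had 39 contacts, all at higher coordinates. A bait within AKAP12, a kinase anchor gene, had 39, all lower, with a median score of 8.72. A bait within TFAP2C, a transcription factor gene of naive pluripotency and trophoblast, had 37, all higher and up to 828 kb away. A bait within GATA4, a cardiac and endodermal regulator, had 27 lower and 10 higher. Over the 1191 baits with at least 10 cis contacts within 2 Mb, 633 (53.1%, interval 50.3 to 56.01%) had all of them on 1 side, 297 on the higher and 336 on the lower. Contacts of 1 bait often lie in the same run, so they are not independent draws of a side.

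Few other ends were themselves captured. Of the cis contacts, 1687 (2.61%, 2.48 to 2.73%) joined a bait to another bait. Listed baits made up 4.64% of the fragment numbers but 0.713% of the length spanned by the map, 21.997 of 3086 Mb, so whether the share is above or below the baits' own part depends on the measure. The share was 7.25% below 20 kb (5.39 to 9.50%) and 3.31% at 20 to 100 kb. It was 2.38% and 2.36% in the next classes, to 500 kb and to 2 Mb, and 4.03% beyond 2 Mb. In trans it was 2.30%.

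Captured other ends lay nearer and scored somewhat higher than uncaptured ones. Their median distance was 248 kb against 290 kb, and their median score 6.23 against 6.07. Scores of at least 10 were reached by 13.04% against 7.29%, and within 2 Mb by 8.89% against 6.49%. A captured other end is a single short fragment while an uncaptured one is a bin of about 5 kb, and the part of this in the difference was not tested. The 1687 contacts came from 1522 distinct pairs, of which 165 scored at least 5 from both sides. Scores of those pairs differed by a median of 1.80 between the sides.

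Uncaptured gene ends were the other end of a minority of cis contacts. An uncaptured fragment within 1 kb of a protein-coding gene's end was the other end of 7299 cis contacts, 11.3% (11.03 to 11.5%). The part of all uncaptured fragments that lies at a gene end was not computed, so this share has no background beside it. The share was 18.3% below 20 kb, 18.5% at 20 to 100 kb, 11.3% at 100 to 500 kb, 8.27% at 0.5 to 2 Mb and 7.42% beyond. Median scores at gene ends and at other uncaptured fragments were 6.10 and 6.06. Among captured other ends, 256 (15.2%) lay at a gene end.

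When a bait away from any gene end reached a gene within 2 Mb, that gene was seldom the nearest. Of 5202 such contacts, from 3381 baits, 455 (8.75%, 7.99 to 9.55%) ended at the gene nearest to the bait, and 28.2% passed over no whole protein-coding gene. Contacts to the nearest gene had a median distance of 136 kb and those to another gene 246 kb. The median number of whole genes passed over was 1, with the upper quartile at 4. Over all cis contacts, from any bait and to any other end, 1.02% were shorter than 20 kb. The share of nearest genes to be met from the distances alone was not computed.

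Most protein-coding genes had no contact at their ends. Of 20046 placed genes, 6682 (33.3%) had at least 1 cis contact with a fragment within 1 kb of either end, 3452 of them as the other end only. The median of these genes was 2 contacts. At least 5 were found for 1369 genes, at least 10 for 507 and at least 20 for 147. A captured fragment at an end was held by 4341 genes. Among the 507 genes with at least 10 contacts, 292 (57.6%) had at least 90 percent of their partners on 1 side.

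The gene with most cis contacts was RNF228, a little studied RING finger gene, with 91, at a median of 242 kb. It has 5 captured fragments, which gives 15.8 contacts of its own baits per fragment. Its neighbour SGPP2, a phosphatase of sphingosine-1-phosphate, had 80, of which 75 had the partner at a lower coordinate. LIX1L had 66, most of them near, with a median of 53.9 kb. ANKRD34A, which adjoins it on chromosome 1, had 49 at a median of 46.2 kb.

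SST and OTP, with 62 contacts each, had few short contacts. SST encodes the hormone somatostatin, an inhibitor of endocrine secretion. All its partners lay at lower coordinates, with quartiles of 334 and 410 kb. The highest score, 26.5, belonged to the promoter fragment printed above and the fragment chr3:187319542-187324633, which lies 27.8 kb from MASP1, a complement protease gene. OTP, a homeobox gene of hypothalamic neurons, had 59 of its partners at higher coordinates, with quartiles of 216 and 331 kb. Its strongest contact scored 20.2 with chr5:77852134-77857431, a fragment 75.8 kb from TBCA, which encodes a tubulin chaperone.

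KCNH1 and HOXD9 had the highest median distances among the 20 genes. KCNH1 encodes a voltage-gated potassium channel and is 456 kb long. All its 47 contacts pointed to lower coordinates, the nearest at 447 kb, with a median of 685 kb and a median score of 8.02. The strongest, at 20.7, ended within HHAT, the gene of the hedgehog acyltransferase, at chr1:210447099-210452139. HOXD9 had 43, of which 41 pointed to higher coordinates, with a median of 524 kb and a strongest score of 18.0. The partner there, chr2:176645442-176646700, is a bait, 307 kb from MTX2, the gene nearest to it.

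**Figure D3:**
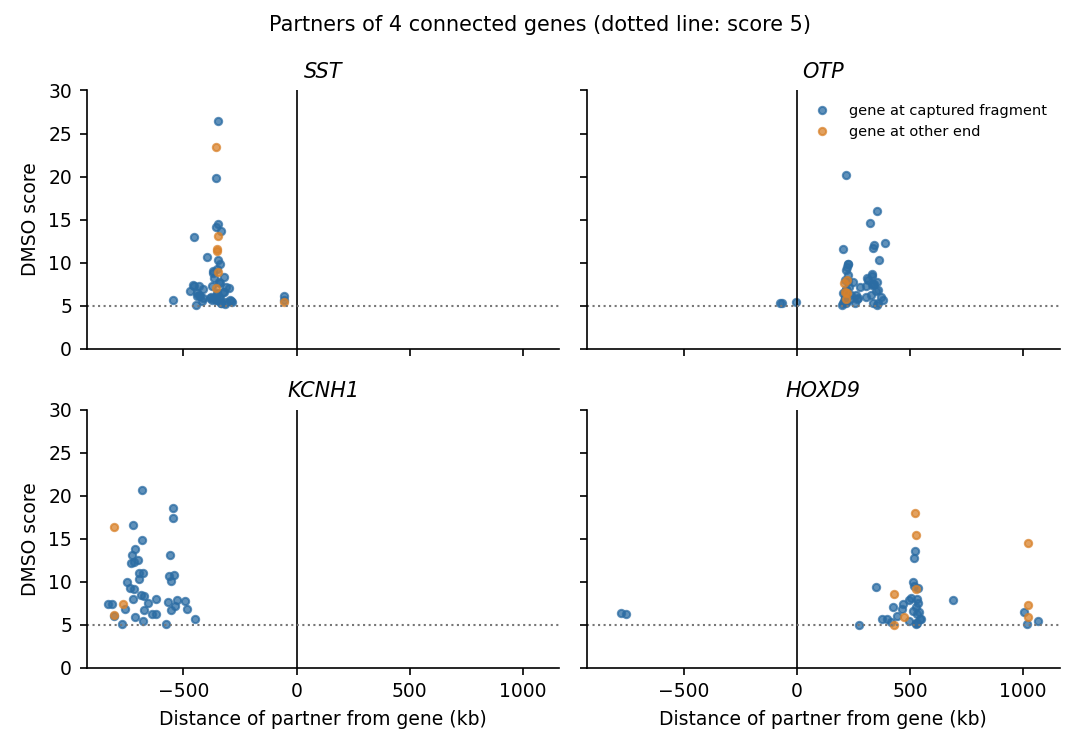
DMSO score of each cis contact of SST, OTP, KCNH1 and HOXD9 against the distance of its partner (kb, negative towards lower coordinates), blue where the gene lies at the captured fragment and orange where it lies at the other end; the dotted line is the threshold of 5. All partners of SST and KCNH1 lie on the lower side and 41 of 43 partners of HOXD9 on the higher, and 2 contacts of SST and 1 of KCNH1 beyond 2 Mb are outside the axis.

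HOX genes, the homeobox genes that set position along the body axis, stood high in the same order. HOXC6 had 59 contacts, 50 of them at higher coordinates, and HOXC13 had 45, 33 of them lower. Close to them in number were FOXI3 with 55, PCDHB1 of the protocadherin clusters with 54, all from its own 5 captured fragments, and ZNF385A, a zinc finger gene near HOXC, with 51.

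SKAP2, a cytosolic adaptor gene beside the HOXA cluster, was mostly met from the other side. Of its 50 contacts, 35 had SKAP2 at the other end and 15 at its own bait, and 49 had the partner at the higher coordinate, where HOXA lies. Its strongest contact, 18.2 at 241 kb, had its partner at chr7:27101770-27106229, over HOXA2. The 2 promoter fragments printed above lie further inside the gene than the 1 kb window, so their contacts are not among these 50. The rest of the 20 were LOC112268119 (48 contacts, all lower), KCNH1, BLK (47), WDR86 (47), the neurotrophin gene NTF3 (43), the receptor gene MET (42) and the mitochondrial carrier gene SLC25A48 (42).

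**Figure D4:**
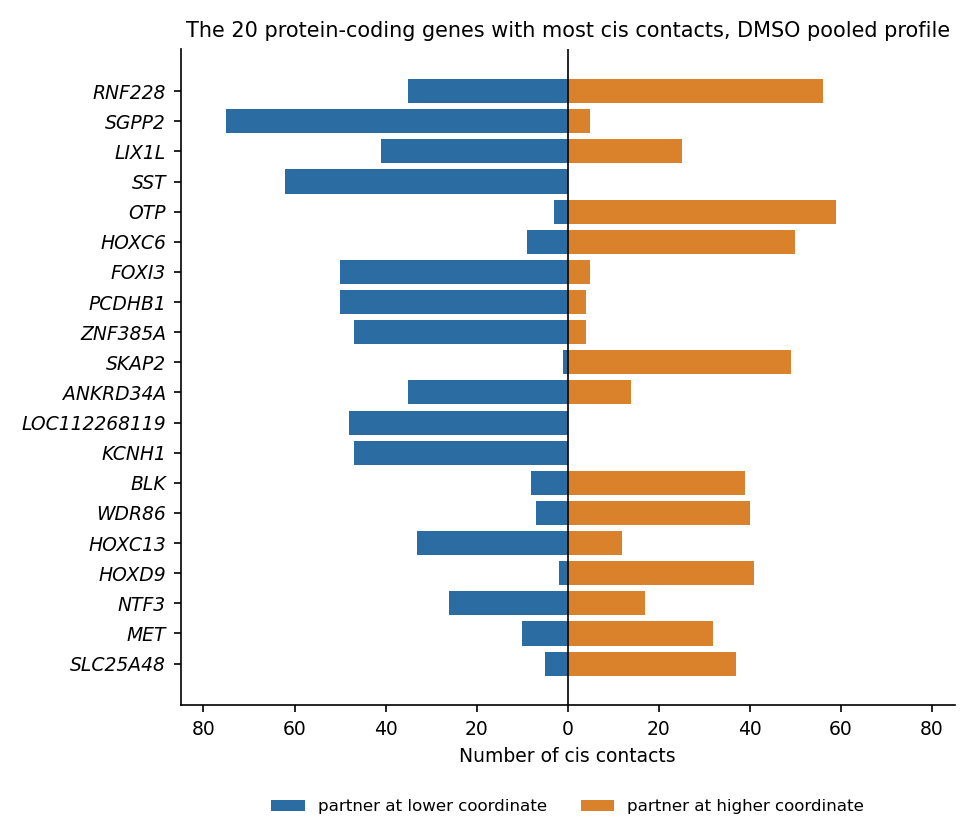
Number of cis contacts at the ends of the 20 protein-coding genes with most of them in the DMSO pooled profile, split by whether the partner lies at a lower (left) or higher (right) coordinate. RNF228 has 91 contacts in all; SST, KCNH1 and LOC112268119 have all partners on the lower side, and OTP has 59 of 62 on the higher.

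Developmental genes were met more often than genes at large, and they also held more captured fragments. Of the 41 HOX genes, 40 (97.6%) had a cis contact, beside 33.3% of all genes, and 85.4% had a captured fragment, beside 21.7%. Of 99 other homeobox genes 80.8% had a contact, of 56 mesoderm and endoderm genes 78.6%, of 74 signalling genes 70.3% and of 44 neural and neural crest genes 65.9%. Captured fragments were held by 84.8%, 66.1%, 66.2% and 70.5% of these lists. The choice of fragments to capture therefore moves with these shares. Among genes with a captured fragment, a contact was found for 79.2% of all genes and 100% of HOX genes. The share was 90.5% for homeobox, 97.3% for mesoderm and endoderm, 85.7% for signalling and 87.1% for neural and neural crest genes. The other lists also stood above all genes, so this was not particular to developmental genes. They had a contact for 15 of 16 Polycomb and Trithorax genes and 16 of 17 trophoblast and extraembryonic genes with a captured fragment. For pluripotency it was 5 of 6, and for housekeeping 2 of 2. Of the 20 genes with most contacts, 4 were in these 5 lists, and of the first 100, 25, while the lists hold 314 genes or 1.57% of those placed. That 1.57% is not matched for capture, since the ranks include the contacts of a gene's own baits. A background of genes with a captured fragment was not computed for these ranks. Genes that share an end, such as HOXC4, HOXC5 and HOXC6, also share contacts.

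**Figure D5:**
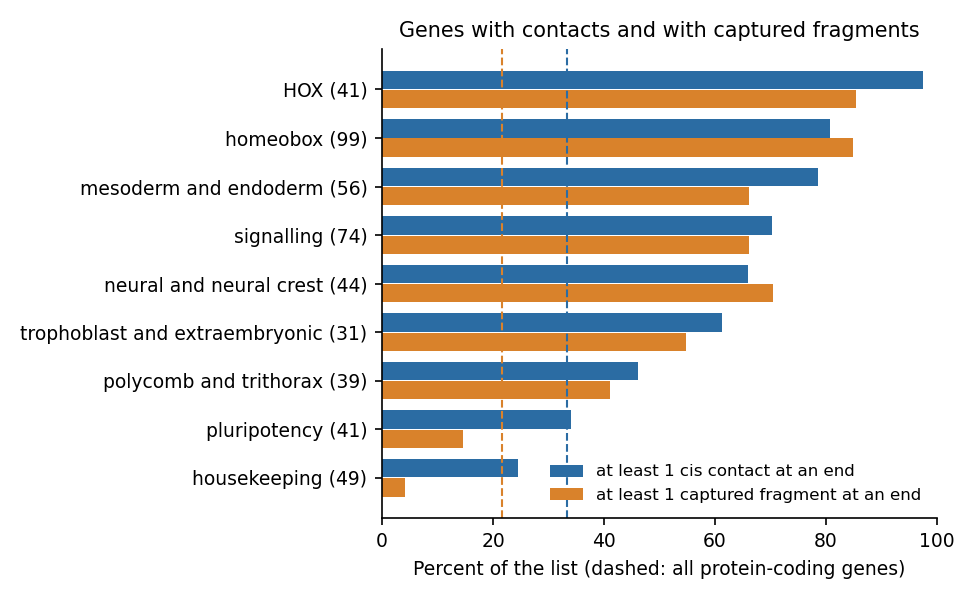
Percent of the genes of each list (number of genes in brackets) with at least 1 cis contact at an end (blue) and with at least 1 captured fragment at an end (orange) in the DMSO pooled profile; dashed lines give all protein-coding genes, 33.3% and 21.7%. HOX genes stand highest for contacts, at 97.6%, and housekeeping genes lowest, at 24.5%, while captured fragments were held by 85.4% and 4.08% of them.

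HOX contacts also scored higher and joined baits more often. Of the 641 contacts at HOX genes, 13.1% scored at least 10, beside 6.74% of the 19609 contacts at all genes. The other end was captured in 14.7%, beside 2.51%. In the homeobox list 9.12% scored at least 10 and 10.4% had a captured other end. Captured fragments were held by 85.4% of HOX and 84.8% of homeobox genes, beside 21.7% of all genes. A gene met as the other end counts as captured where its fragment is a bait. The part of this in the captured shares was not tested. Scores of at least 10 were also reached by 9.76% of contacts at mesoderm and endoderm genes and 10.44% at trophoblast and extraembryonic genes. The share was near that of all genes for pluripotency genes (4 of 63 contacts, 6.35%). It was lower for neural and neural crest genes (12 of 246, 4.88%) and signalling genes (10 of 252, 3.97%). Polycomb and Trithorax genes (2 of 88, 2.27%) and housekeeping genes (0 of 23 contacts) also stood lower. Several of these counts are small, and no difference was tested.

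Within the lists, the genes with most contacts were regulators of several lineages. ISL1, a LIM homeobox gene of motor neurons and heart, had 39, of which 29 had the partner at a lower coordinate. The strongest contact of the homeobox list was that of NKX3-2, a regulator of cartilage, whose bait scored 25.8 with chr4:12727691-12732947, 818 kb away in a stretch 635 kb from RAB28, the nearest gene. All 23 contacts of NKX3-2 pointed that way.

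FOXA1, a pioneer factor of endoderm, had 40 contacts, all lower. EOMES, a T-box gene of mesoderm and endoderm, had 33, split 17 higher and 16 lower, and SOX17, an endoderm factor, had 26, all lower, with a strongest score of 20.2. SNAI2, a neural crest gene, had 31, all lower, at a median of 605 kb. The proneural genes NEUROG2 and NEUROG1 had 24 and 19, and the strongest neural contact, 16.8 at 181 kb, was that of NEUROG2.

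Signalling genes had fewer. The hedgehog ligand gene DHH had 21, the retinoic acid enzyme gene ALDH1A2 had 20, all lower, with a strongest score of 14.4, and the ligand gene FGF20 had 19. In the trophoblast and extraembryonic list, of which 61.3% had a contact, ISL1, SOX17 and TFAP2C led. TFAP2C had 26 contacts, 25 of them higher, with a strongest score of 14.2.

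Genes of Polycomb and Trithorax, pluripotency and housekeeping stood nearer the background. A contact was found for 18 of 39 Polycomb and Trithorax genes (46.2%), 14 of 41 pluripotency genes (34.1%) and 12 of 49 housekeeping genes (24.5%). Captured fragments were held by 41.0%, 14.6% and 4.08%. EPOP, a PRC2 cofactor gene, had 20, KMT2D, a histone H3 lysine methyltransferase gene, had 15, all as the other end, and BMI1, of PRC1, had 12. EED, the PRC2 subunit that UNC6852 degrades, had 1 contact, but it scored 10.8, at 431 kb with a bait at CCDC83 and SYTL2. EZH2, SUZ12, SOX2, POU5F1 and NANOG had 0, with 0 captured fragments at their ends. After TFAP2C, KLF4 and OTX2 led the pluripotency list with 7 each, those of KLF4 at a median of 1081 kb. TFRC, VPS29 and TBP led the housekeeping list with 7, 4 and 2, and its highest score was 8.04, at TFRC.

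Contacts that joined 2 genes were a small share. Of 2114 cis contacts at genes of the 5 developmental lists, 188 (8.89%, 7.71 to 10.2%) had another protein-coding gene at the other end, beside 10.4% (10.0 to 10.9%) of contacts at all genes. In all 2099 pairs of genes were joined, 28 of them pairs of list genes, and 0 of these 28 by as many as 5 contacts. DHH and KMT2D were joined by 4, at a median of 31.1 kb. FOXA1 and PAX9, a paired-box gene of pharynx and teeth, were joined by 3, the strongest scoring 19.5 at 931 kb. FOXA1 and NKX2-1, a homeobox gene of thyroid, lung and forebrain, were joined by 3 at a median of 1071 kb.

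The gene pairs joined most often are named here with their values already known. ACO1 and NDUFB6 were joined by 9 contacts, RNF228 and SGPP2 by 8, and PCDHA10 and PCDHB1 by 8. HOXA3 and SKAP2 were joined by 6, with a highest score of 18.2. That is the strongest SKAP2 contact given above, whose partner fragment overlaps HOXA2 and lies within 1 kb of an end of HOXA3.

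The 1 Mb window with most cis contacts was chr2:222000001-223000000, which holds PAX3, the homeobox gene of neural crest and muscle. Its 58 baits had 645 contacts, or 11.1 per bait, with a median score of 6.93. PAX3 itself had 0 captured fragments at its ends and 1 contact, with a score of 6.38. Of the 636 contacts of the window within 2 Mb, 343 (53.9%) passed over the whole of PAX3, and 14 baits within PAX3 had 132 contacts. FARSB, a tRNA synthetase gene on the SGPP2 side, was met 25 times, each time as the other end and with the bait at a lower coordinate. The fragment chr2:222562056-222568438, met by 24 baits, lies at an end of both FARSB and SGPP2, so its contacts count for both genes.

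The same locus held the other ends reached by most baits. The fragment chr2:222044177-222049601, 150 kb from PAX3, was met by 37 baits, all at higher coordinates, at a median of 260 kb and with a median score of 9.38. Its neighbours chr2:222053903-222059225 and chr2:222059226-222064310 were met by 32 and 29. On the SGPP2 side, chr2:222556028-222561185, within that gene, was met by 25 baits, all lower.

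The second locus was HOXC on chromosome 12. The window chr12:54000001-55000000, with HOXC4, HOXC5, HOXC6, HOXC8 and HOXC9, had 574 contacts from 103 baits, and the window before it, with HOXC10 to HOXC13, had 343 from 72. The fragment chr12:54208156-54213264, 17.7 kb from CBX5, the gene of heterochromatin protein HP1 alpha, was met by 30 baits. These included baits at HOXC4, HOXC5, HOXC6, HOXC8, HOXC9, HOXC10, HOXC11 and HOXC13 and at ZNF385A, and the highest score was 35.6. A fragment within SMUG1, a DNA repair gene, chr12:54179691-54185084, was met by 27 baits, all lower. The strongest HOXC6 contact, 27.4 at 174 kb, ended in the same stretch, at chr12:54203168-54207236.

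The remaining windows included those of HOXB, OTP and HOXD. The HOXB window on chromosome 17 had 480 contacts from 107 baits, the OTP window on chromosome 5 had 406 from 54, and the HOXD window on chromosome 2 had 345 from 69. Median distances in these were 228, 225 and 486 kb. The window chr1:156000001-157000000 had 292, with RHBG as its leading gene. The window chr12:57000001-58000000 had 278, with GLI1 at 1 contact and CYP27B1 at 24, and chr1:47000001-48000000, with TAL1 and FOXD2, had 276. Together the 10 fullest windows held 6.14% of cis contacts, spread over 2368 windows in all.

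One of the 10 stood apart. The window chr16:46000001-47000000 had 338 contacts from only 19 baits, of which 19 lay within 2 Mb, with a median distance of 11484 kb. SHCBP1, the gene nearest to its fullest bait, had 0 contacts.

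The highest cis scores of the map came from such far pairs and lay at no gene end. The first, 1429, joined fragments of chromosome 16 that start at 34595031 and 46389224. The highest on chromosome 1, 858, joined fragments that start at 125183675 and 143244346. Of the 62 cis scores of at least 50, 59 lay beyond 2 Mb. Among pairs with a gene at an end, the first was NBPF1 at 160, over 218166 kb of chromosome 1. KRTAP5-2 and KRTAP5-10, keratin-associated protein genes of the same family, were joined at 105 over 69972 kb of chromosome 11. A bait at LOC124904970 on chromosome 20 scored 81.3 over 2252 kb. On chromosome 17, baits beside or within LRRC37A3 and LRRC37A scored 29.5 with STH and 30.5 with C17orf58, over 18920 and 21724 kb. PSMD7, a proteasome gene, scored 29.0 with a fragment in PDPR over 4144 kb. NBPF, LRRC37 and KRTAP5 are families of near-identical copies, among which reads can be assigned to the wrong copy. How far this moves these scores was not tested.

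From 20 kb to 2 Mb the strongest contact with a gene at an end was again between relatives. ROPN1 and ROPN1B, a pair of paralogs of sperm function, scored 55.8 at 1978 kb and had no neighbouring contact. The next ones had neighbouring contacts. A bait 35.5 kb from RNASE3 scored 35.1 with ANG, the angiogenin gene of the ribonuclease family, at 159 kb. A bait 27.3 kb from MASP1 scored 34.3 with RTP2, a chaperone of odorant receptors, at 397 kb; it lies beside the fragment that SST met most strongly. A bait near TMEM275 scored 31.2 with FAAH, the gene of an endocannabinoid hydrolase, at 117 kb.

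Below these came LPAR1, a lysophosphatidic acid receptor gene, at 28.8, FOXI3 at 28.0 and RGS2, a regulator of G-protein signalling, at 27.6. The FOXI3 bait reached 28.0 with a fragment 4.79 kb from THNSL2 and 27.3 with THNSL2 itself, at 265 kb. From 0.5 to 2 Mb the strongest contacts with a gene at an end, after ROPN1 and NKX3-2, were HOXD8 with 25.6 at 513 kb, PASD1 with 24.2 at 519 kb on chromosome X, and SGPP2 with 22.7 at 515 kb.

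Between captured fragments that both lay at genes, scores were lower. The strongest, 11.3, joined SLC43A2 to FN3K and TBCD over 81121 kb of chromosome 17. HOXA3 and SKAP2 scored 10.95 at 243 kb, with neighbouring contacts. ZIC4, a zinc finger gene of the cerebellum, and LOC124909494 scored 10.5 at 43.9 kb. The homeobox genes HMX2 and VAX1 scored 9.52 over 6012 kb of chromosome 10, and PAX9 and FOXA1 scored 9.001 at 934 kb.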

How the data were processed

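Poised-enhancer capture Hi-C was done on HNES1 cells with DpnII and SureSelect RNA probes, per the labels' protocols. The authors deposited 1 pooled CHiCAGO score per pair of fragments and condition, per the labels; the build is GRCh38, per the submitters' processing notes. The aligner, the caller's version and its settings are not given in the sources used here. The scores were used as deposited. A contact was a pair with a DMSO score of at least 5. Read numbers are not in these scores, so depth is unknown.

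A captured other end was a fragment that also stands as a bait in the table. Genes came from RefSeq's GRCh38.p14 annotation, without strand, so a fragment was assigned to a gene within 1000 bp of either end. Nearby genes can share a contact. Genes were named by rule: the 20 with most cis contacts, the strongest contacts beyond 20 kb, from 0.5 to 2 Mb and between captured fragments at genes, the 3 leading genes and the strongest contact of each of 9 lists, the 10 fullest 1 Mb windows, the fullest baits and other ends, and pairs of list genes with at least 5 contacts. One gene that the rule names is not reported here. Genes beside these were chosen after their values were seen: SOX2, POU5F1, NANOG, EZH2, SUZ12, the genes around PAX3, pairs of genes with fewer or other contacts, and the baits with most contacts within 2 Mb. The contacts and lists were chosen with earlier results of these data known. Counts were tested on simulated data. Alternatives covered the score threshold, distance limits, merged other ends, full baits, gene windows and shifted windows. Software was scipy 1.17.1, pandas 2.3.3 and numpy 2.4.6 under Python 3.11.15, with matplotlib 3.10.9 for plots.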

Additional observations from a re-analysis of the deposited data

How the results depend on the processing

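Of 63 alternative values, 30 stayed within counting error, or within 1.5 times for counts, and 33 moved. None had a test. Only the values were compared, so some of the 30 hold a change of the leading gene or window. With a score threshold of 10, the share in cis was 45.0%, the median per bait 1, the median distance 311 kb, captured other ends 4.57%, uncaptured gene ends 11.6%, contacts with neighbours 50.6% and genes with a contact 4.11%; RNF228 led with 25, and the fullest window moved to chromosome 16, with 214. Without the 258 fullest baits (22 or more contacts each) the share in cis was 41.8%, neighbours 43.9% and genes 32.6%, and OTP led with 62 in place of RNF228. The fullest window was then on chromosome 12, with 448 contacts. Limits of 20 kb and above gave a median distance of 291 kb. Limits of up to 2 Mb gave gene ends 11.5%, neighbours 49.1% and genes 31.9%, and, as alternatives chosen after seeing the data, 40.8% in cis, a median distance of 273 kb and a strongest score of 82.7, on chromosome 7. Merged other ends gave a median of 310 kb, captured 2.86% and 51 contacts for RNF228, and captured pairs counted a single time 2.36%. With other ends merged, the fullest window was also on chromosome 12, with 440 contacts. Gene windows of 0 bp gave gene ends 8.29%, genes 22.4%, ANKRD34A leading with 38, and 5.08% of developmental contacts joining 2 genes; windows of 5000 bp gave 21.9%, 47.6%, OTP with 262, and 16.7%. Counting only genes met as the other end, 22.01% of genes had a contact and SKAP2 led with 35. So the leading gene depends on the window, while windows shifted by 500 kb put HOXC first with 813. No paired analysis was possible because the deposited profile pools all replicates; for the same reason no replicate could be left out.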
